A study of Mus musculus with 3 samples.

Results

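The 9 genes described here, Tsc22d3, Fkbp5, Ddit4, Txnip, Per1, Sgk1, Dusp1, Pik3ip1 and Klf9, are known targets of the glucocorticoid receptor, of FOXO transcription factors, or of both. They were taken by symbol from the 56980 genes listed in the feature tables, and all 9 were found once each. They were chosen by their known regulation and with their summed UMIs in the gates described here already seen, so their levels and ratios are given as a description and support nothing by themselves. The cells came from spleens of WT mice, ground to a suspension and run on the 10x Genomics platform, in 1 library for each of 3 groups. IR_HSO came from mice that received 8.5 Gy and HSO, which the series title spells out as hemp seed oil. IR came from mice that received 8.5 Gy with a "colvent control", read here as the vehicle, although the wording leaves that uncertain. Control came from mice with no irradiation. The labels give neither age, sex and strain nor the number of mice behind a library, and neither the oil's dose nor the hour of sampling. With 1 library per group no difference has a replicate check, no test was possible, and every comparison is between libraries. IR against control addresses what goes with irradiation and vehicle together, since the control label names no vehicle. IR_HSO against IR addresses what goes with the oil.

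Glucocorticoids are steroid hormones of the adrenal cortex. Their receptor waits in the cytoplasm in a complex with the chaperone Hsp90, enters the nucleus when the hormone binds, and turns on genes that damp inflammation and, in lymphocytes, favour cell death or quiescence. FOXO factors sit in the nucleus when PI3K and AKT signalling is low and keep resting T cells quiescent and alive, and several genes answer to both. Fkbp5 encodes a cochaperone that lowers the receptor's affinity for its hormone. Tsc22d3 encodes GILZ, a leucine zipper protein that restrains NF-kB and AP-1. Klf9 is a zinc finger transcription factor, and Per1 a repressor of the circadian clock. Sgk1 is a kinase related to AKT that can inactivate FOXO3, and Dusp1 a phosphatase that switches off p38 and JNK. Ddit4 encodes REDD1, an inhibitor of mTORC1 that is also known to answer to p53. Txnip encodes an arrestin-like protein that binds thioredoxin and limits glucose uptake. Pik3ip1 is a membrane protein that restrains PI3K.

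Cells were kept with at least 500 UMIs (unique molecular identifiers, 1 per captured transcript) and under 10% mitochondrial UMIs, which left 10608 cells in IR_HSO, 12866 in IR and 9163 in control. The T gate took cells with at least 2 UMIs of Cd3d, Cd3e and Cd3g together and held 6982 cells in IR_HSO, 8212 in IR and 3731 in control. It was divided into cells with a Foxp3 UMI (Foxp3 gate, 1551, 871 and 246 cells in the same order), with Cd4 but no Foxp3, Cd8a or Cd8b1 (Cd4 gate, 1970, 2495 and 1201), with Cd8a or Cd8b1 but no Foxp3 or Cd4 (Cd8 gate, 613, 653 and 1280) and with no Foxp3, Cd4, Cd8a or Cd8b1 UMI (neither gate, 2718, 3977 and 845). Cells with both Cd4 and Cd8 but no Foxp3 (130, 216 and 159) stayed in the T gate only. The NK gate, with an Ncr1 UMI and no Cd3, held 1046 cells in IR_HSO, 1531 in IR and 337 in control. The B gate, with at least 2 UMIs of Cd79a and Cd79b, held 321 cells in IR_HSO, 444 in IR and 4719 in control. All 5 T cell markers were detected in the T gate of each library, with summed levels of 3350 CPM in IR_HSO, 4197 in IR and 4043 in control.

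The libraries differed in more than their treatment. They held 45636807 UMIs in IR_HSO, 50836313 in IR and 47298108 in control, and the T gate had medians of 3569, 3587 and 5479 UMIs per cell. Barcodes with 10% or more mitochondrial UMIs were 16.5% of IR_HSO, 4.76% of IR and 3.75% of control. Foxp3 cells made up 22.2% of the T gate in IR_HSO, 10.6% in IR and 6.59% in control, and Cd8 cells 8.78%, 7.95% and 34.3%. Pairs of libraries shared 34 to 54 cell barcodes. The 18S ribosomal RNA gene Rn18s took 45812 CPM of the T gate in IR_HSO, 10836 in IR and 28741 in control. Transcripts of other cells were present in the T gate. NK cell markers (5 of 5 detected in each library) summed to 758 CPM in IR_HSO, 1131 in IR and 207 in control. Immunoglobulin genes summed to 23646 CPM in IR_HSO, 26030 in IR and 6875 in control, and the 12 pancreatic acinar markers to 900 CPM (12 of 12 detected), 2270 CPM (12 of 12) and 1.48 CPM (1 of 12, the other 11, among them Cpa1, Cela2a and Pnlip, at 0). Other classes stood higher in control. B cell markers (5 of 5 detected in each library) summed to 39.2 CPM in IR_HSO, 59.8 CPM in IR and 519.5 CPM in control. Erythroid markers (4, 4 and 5 of 5 detected) summed to 0.832, 0.924 and 385 CPM in the same order. Monocyte and macrophage markers (5 of 5 in each) summed to 2.6, 3.11 and 80.9 CPM. T gate cells that were also in the B gate numbered 93, 138 and 541. The part of these transcripts in the results was not tested.

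In the T gate 6 of the 9 genes were at least 1.5-fold above control in IR, and 1, Sgk1, was at least 1.5-fold lower. Among the 10367 genes measured there, 11.5% were higher by that limit and 4.23% lower. Levels are in CPM, UMIs of a gene per 1000000 UMIs of the gate, and a fold is the ratio of 2 CPM with its 95% counting interval in brackets. These intervals cover counting error only, not the difference between mice. The median log2 ratio of the 9 genes was 0.69, against 0.11 over all genes measured. In IR_HSO against IR, 3 of the 9 were at least 1.5-fold higher and 0 lower, where 7.67% and 5.4% of the 10508 genes measured were, and the median log2 ratio was 0.30 against 0.04 over all genes. In IR_HSO against control, 6 were higher and 1 lower, with 18.7% and 6.79% of all genes, and the median was 1.38. These 3 comparisons share libraries and are not independent. The 9 genes together took 2014 CPM of the T gate in IR_HSO, 1635 in IR and 1038 in control.

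**Figure D1:**
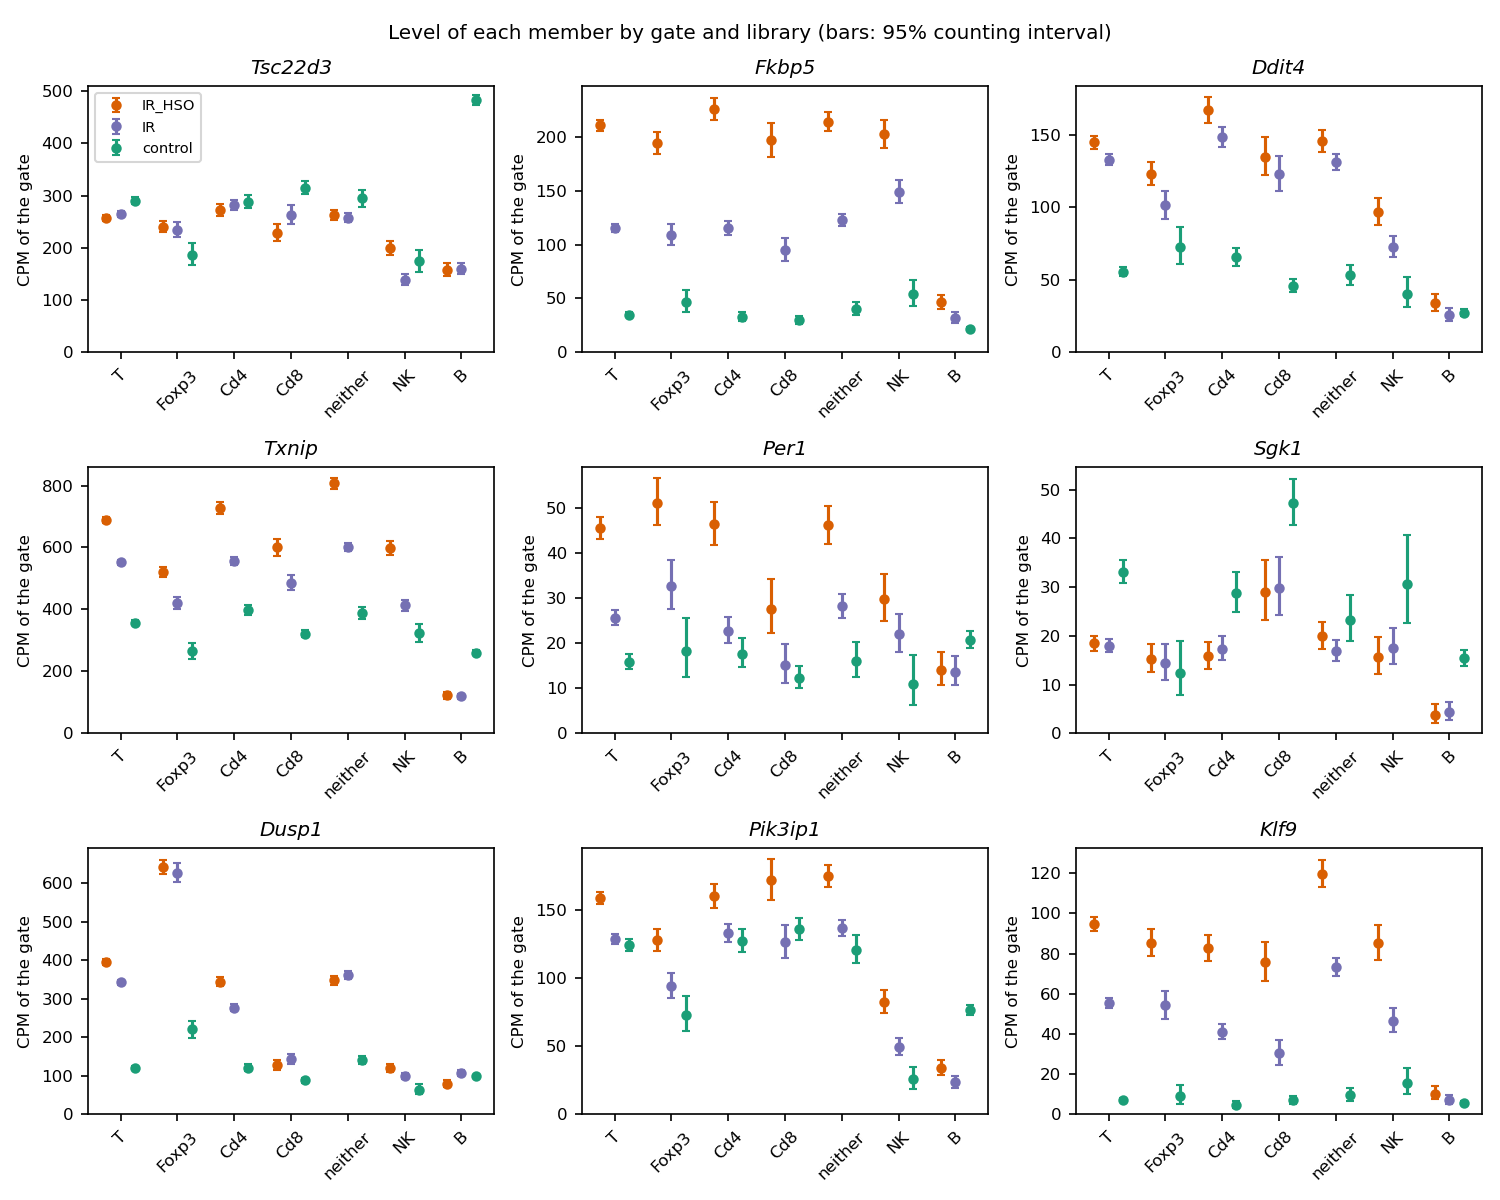
Level of each of the 9 genes in CPM of the gate (vertical axis, from 0) in 7 gates (horizontal axis), with 1 point per library (IR_HSO, IR, control) and bars for the 95% Poisson counting interval. Klf9 and Fkbp5 stand in the order IR_HSO, IR, control in the 5 T cell gates and the NK gate, Sgk1 is highest in the Cd8 gate of control, and Tsc22d3 is highest in the B gate of control.

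Klf9 had the largest ratio of the 9 between IR and control in the T gate. It stood at 94.6 CPM in the T gate of IR_HSO, 55.2 CPM in IR and 7.07 CPM in control. That was 7.8-fold [6.64, 9.21] above control in IR and 1.71-fold [1.62, 1.82] higher in IR_HSO than in IR. All T gates and the NK gate kept the order IR_HSO, IR, control. The neither gate had the highest levels in the irradiated libraries, 119.5 CPM in IR_HSO and 73.1 CPM in IR, against 9.47 CPM in control. In the Cd4 gate Klf9 was 8.54-fold [6.03, 12.5] above control in IR, and in the NK gate 3.03-fold [1.99, 4.82]. Its IR_HSO level exceeded that of IR by 2.49-fold [1.96, 3.17] in the Cd8 gate and by 1.57-fold [1.35, 1.83] in the Foxp3 gate.

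Fkbp5, the feedback cochaperone of the receptor, followed the same order. It stood at 211 CPM in the T gate of IR_HSO, 116 CPM in IR and 34.8 CPM in control. IR exceeded control 3.33-fold [3.09, 3.6], and IR_HSO exceeded IR 1.82-fold [1.75, 1.9]. Over the T gates of a library the level ran at 194 to 226 CPM in IR_HSO, 95.4 to 123 CPM in IR and 30.2 to 47.1 CPM in control, where the Foxp3 gate was highest and the Cd8 gate lowest with intervals that did not overlap. The NK gate had 203 CPM in IR_HSO, 149 CPM in IR and 54.4 CPM in control, where IR_HSO exceeded IR only 1.36-fold [1.23, 1.5], short of the 1.5-fold limit. Among the 9 genes in the T gate, Fkbp5 had the highest ratio between IR_HSO and IR, with an interval that overlapped those of Per1 and Klf9.

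Per1, the clock repressor, was also higher in both comparisons. It had 45.5 CPM in the T gate of IR_HSO, 25.6 CPM in IR and 15.9 CPM in control, from 1368, 915 and 363 UMIs. IR exceeded control 1.62-fold [1.43, 1.83] and IR_HSO exceeded IR 1.78-fold [1.63, 1.93]. By gate, the ratio of IR to control was 1.29-fold [1.04, 1.61] in the Cd4 gate and 1.23-fold [0.857, 1.73] in the Cd8 gate, where the interval includes 1. The step between IR_HSO and IR was 2.03-fold [1.73, 2.39] in the Cd4 gate and 1.84-fold [1.28, 2.66] in the Cd8 gate. In the Foxp3, neither and NK gates the ratios of IR_HSO to IR were 1.57, 1.64 and 1.36-fold. Those of IR to control were 1.8, 1.77 and 2.01-fold, from 32, 69 and 17 control UMIs. The difference between these ratios was not tested in any gate. In the Cd4 gate the log2 ratio of IR to control was 0.37, and -0.32 in cells thinned to 1000 UMIs, so its sign depended on that setting. The thinned value rests on few counts. A Per1 UMI was found in 2.27% [1.72, 2.94] of thinned cells in IR and 2.75% [1.9, 3.84] in control, intervals that overlap.

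Dusp1, which ends MAP kinase signals, differed between the T gates. It had 395 CPM in the T gate of IR_HSO, 342 CPM in IR and 120.4 CPM in control, and IR exceeded control 2.84-fold [2.72, 2.96]. The Foxp3 gate was highest in each library, with 642 CPM in IR_HSO, 627 CPM in IR and 220.0 CPM in control. The Cd8 gate was lowest among the T gates, with 127, 142 and 87.7 CPM in the same order. Between IR_HSO and IR the ratio was 1.15-fold [1.13, 1.18] in the T gate. Within the gates it was 1.02-fold [0.977, 1.07] in Foxp3 cells, 1.24-fold [1.18, 1.31] in Cd4 cells, 0.895-fold [0.781, 1.02] in Cd8 cells and 0.962-fold [0.922, 1.003] in the neither gate, so its direction was not shared by the gates. Dusp1 is also an immediate-early gene that tissue dissociation can induce, and that list is described further on.

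Tsc22d3, the gene of GILZ and a standard marker of glucocorticoid action, did not follow Fkbp5 and Klf9. It had 257 CPM in the T gate of IR_HSO, 265 CPM in IR and 290.2 CPM in control, 0.912-fold [0.883, 0.941] in IR of the control level. The gates did not move together: IR was 1.25-fold [1.11, 1.42] of control in the Foxp3 gate and 0.835-fold [0.773, 0.902] in the Cd8 gate. Without the cells that carried a Ccl5 UMI, a setting added after the values were seen, the log2 ratio of the T gate was 0.11, against -0.13 with them. The direction therefore depended on which cells were counted. Of the T gate, 138 of 8212 cells in IR and 541 of 3731 in control were also in the B gate, where Tsc22d3 had 483 CPM in control. In the NK gate it stood at 199 CPM in IR_HSO, 139 CPM in IR and 175 CPM in control, and IR_HSO exceeded IR 1.43-fold [1.3, 1.59].

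Sgk1 was the only one of the 9 that was at least 1.5-fold lower in IR than in control in the T gate. It had 18.4 CPM in IR_HSO, 17.97 CPM in IR and 33.1 CPM in control, 1.84-fold [1.66, 2.05] lower in IR. The Cd8 gate was highest, with 28.9 CPM in IR_HSO, 29.8 CPM in IR and 47.3 CPM in control. Cd8 cells were 7.95% of the T gate in IR and 34.3% in control, and within the Cd8 gate Sgk1 was 1.59-fold [1.27, 2] lower in IR. The Foxp3 gate showed no lower level, with 15.2, 14.4 and 12.5 CPM in IR_HSO, IR and control and a ratio of 1.15-fold [0.699, 1.96] for IR over control. Between IR_HSO and IR the T gate ratio was 1.03-fold [0.914, 1.15].

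The brakes on growth signalling differed among themselves. Ddit4, the mTORC1 inhibitor, had 145 CPM in the T gate of IR_HSO, 133 CPM in IR and 55.6 CPM in control. IR exceeded control 2.39-fold [2.24, 2.54], with 2.67-fold [2.32, 3.08] in the Cd8 gate but 1.39-fold [1.14, 1.71] in the Foxp3 gate, and IR_HSO exceeded IR only 1.09-fold [1.04, 1.14]. Txnip had 689 CPM in IR_HSO, 552 CPM in IR and 357 CPM in control. Its 1.55-fold [1.51, 1.59] ratio of IR to control lay just past the limit, and at a log2 ratio of 0.52 after centring on all genes it did not reach it. IR_HSO exceeded IR in Txnip 1.25-fold [1.22, 1.27]. Pik3ip1, the PI3K inhibitor, had 159 CPM in IR_HSO, 129 CPM in IR and 125 CPM in control. IR and control differed by 1.04-fold [0.988, 1.09], an interval that includes 1, and IR_HSO exceeded IR 1.23-fold [1.19, 1.29]. Among the T and NK gates, Pik3ip1 had its highest ratios in the NK gate, with 82.8 CPM in IR_HSO, 49.4 CPM in IR and 25.6 CPM in control. IR exceeded control there 1.93-fold [1.38, 2.77], and IR_HSO exceeded IR 1.67-fold [1.42, 1.97]. The Foxp3 gate had 94.6 CPM in IR and 73.1 CPM in control, and the B gate went the other way with 23.5 and 76.6 CPM.

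**Figure D2:**
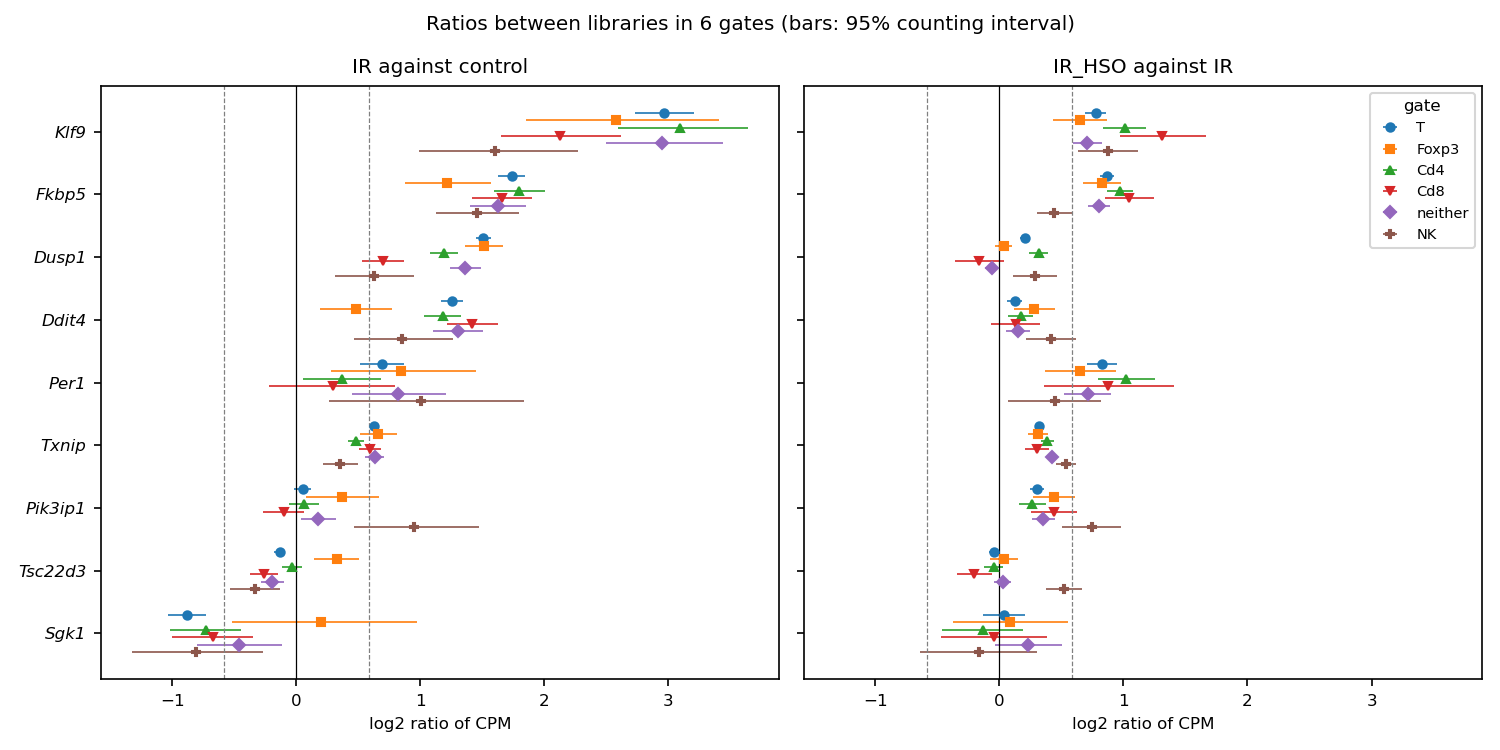
Log2 ratio of CPM (horizontal axis) of each gene for IR against control (left) and IR_HSO against IR (right) in 6 gates, with bars for the 95% counting interval and dashed lines at 1.5-fold. Klf9 and Fkbp5 lie right of the upper line in every gate on the left, Sgk1 lies left of 0 in all but the Foxp3 gate, and on the right Klf9, Fkbp5 and Per1 lie past 1.5-fold in the 5 T cell gates.

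Counted by gate, the genes at least 1.5-fold above control in IR were 5 of 9 in the Foxp3 gate, 4 in the Cd4 gate, 5 in the Cd8 gate, 6 in the neither gate and 6 in the NK gate. The shares of all genes past that limit were 11.5%, 12.9%, 15.1%, 12.6% and 11.8% in these gates. Sgk1 was at least 1.5-fold lower in the Cd4, Cd8 and NK gates, where 4.99%, 5.43% and 12.4% of all genes were, and no other of the 9 was. In the Foxp3 and neither gates 0 of the 9 were lower, where 11.4% and 6.6% of all genes were. In IR_HSO against IR the count was 3 of 9, namely Fkbp5, Per1 and Klf9, in each of the Foxp3, Cd4, Cd8 and neither gates, with 9.67%, 10.5%, 9.74% and 6.77% of all genes past the limit. The NK gate had 2, Pik3ip1 and Klf9, with 8.48% of all genes. None of the 9 was at least 1.5-fold lower in these 5 gates, where 6.26%, 7.38%, 8.97%, 5.23% and 6.33% of all genes were. In the NK gate the 12 pancreatic acinar markers summed to 8068 CPM in IR_HSO (12 of 12 detected), 4102 CPM in IR (12 of 12) and 0 in control, and their part in the NK values was not tested.

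Levels per cell were compared after each cell was thinned to 1000 UMIs, which left out 91 T gate cells of IR_HSO, 229 of IR and 15 of control. A UMI of Fkbp5 was then found in 18.9% of T gate cells in IR_HSO, 11.4% in IR and 3.44% in control. For Klf9 the shares were 8.97%, 5.45% and 0.915% in the same order, and for Txnip 45.8%, 40.7% and 29.7%. Without thinning, Fkbp5 had a UMI in 48.9%, 31.8% and 15.7% of cells, and Txnip in 80%, 73.9% and 75.4%, so for Txnip the unthinned shares do not follow the CPM. Sgk1 was found in 1.65%, 1.94% and 2.91% of thinned cells. Cells with a UMI of at least 3 of the 9 genes made up 21.7% of the T gate in IR_HSO, 15.7% in IR and 4.66% in control. No cell type here was taken to lack these genes, so the share that free RNA gives was not measured. The B gate had the lowest shares of Klf9, 1.89% in IR_HSO, 0.226% in IR and 0.446% in control after the same thinning.

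**Figure D3:**
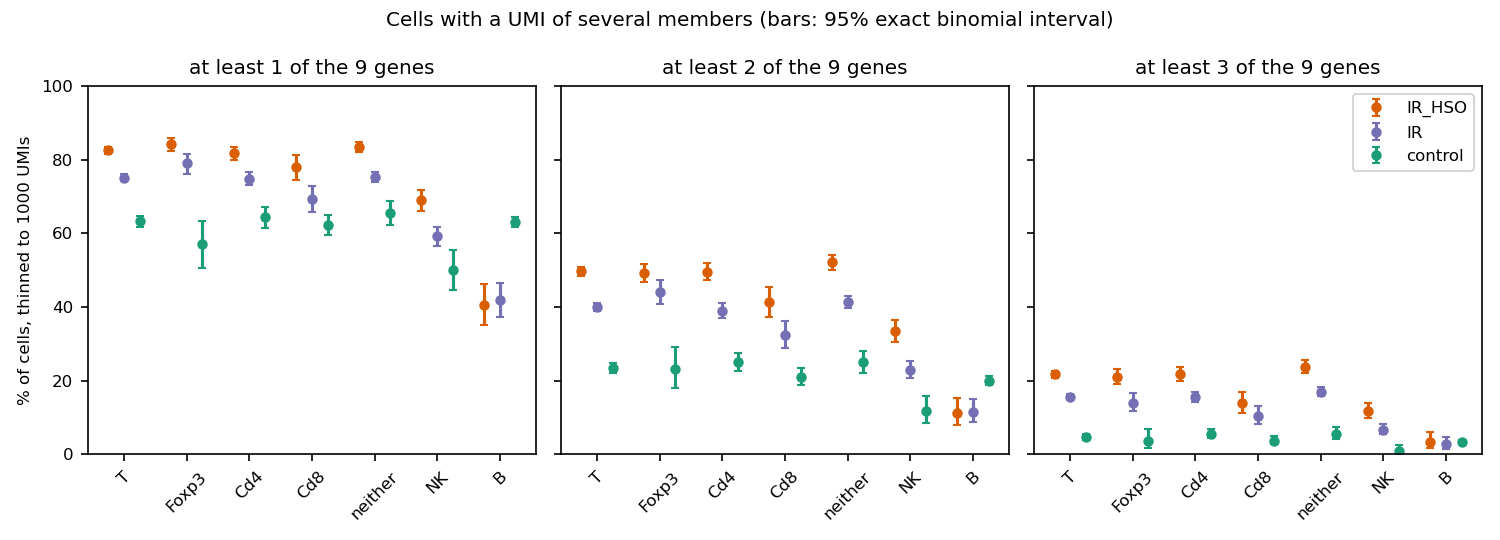
Share of cells (vertical axis, %) with a UMI of at least 1, 2 or 3 of the 9 genes after thinning each cell to 1000 UMIs, by gate and library, with bars for the 95% exact binomial interval. For at least 2 genes, the T gate stands at 49.7% in IR_HSO, 40.1% in IR and 23.3% in control, whereas in the B gate control stands highest at 20%.

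The B gate did not hold the same kind of cell in the 3 libraries. Immunoglobulin transcripts made up 501001 CPM in IR_HSO, 503725 CPM in IR and 40509 CPM in control. All 5 plasma cell markers were detected, at summed levels of 30902, 35573 and 2259 CPM, while the 5 B cell markers summed to 767, 1099 and 6175 CPM, and median depth was 9898, 9223 and 3823 UMIs per cell. All other genes share what remains of the total: 77.6% of genes measured in this gate were at least 1.5-fold lower in IR than in control and 6.17% higher. Of the 9 genes 5 were lower and 0 higher, and the median log2 ratio of all genes was -1.14. That count depended on the total. Without immunoglobulin and the other gene groups named in the next paragraph, Fkbp5, Ddit4, Dusp1 and Klf9 were at least 1.5-fold higher in IR and 3 genes lower, with 20.9% of all genes higher and 23.1% lower. In B gate cells with Ms4a1 and without Sdc1, 3 of the 9 were higher and 4 lower, with 8.95% and 38.7% of all genes. Without cells that were also in the T gate, the log2 ratio of Klf9 was -0.70, against 0.36 with them. In such summed values, fewer cells of a type in a gate and less of a gene's RNA per cell cannot be told apart.

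Tsc22d3 had its highest level of all gates in the B gate of control. It stood at 158 CPM in IR_HSO, 160 CPM in IR and 483 CPM in control, 3.02-fold [2.82, 3.24] lower in IR. Over a total without immunoglobulin genes and Jchain, mitochondrial, ribosomal protein, Rn18s, haemoglobin and pancreatic acinar genes it was 476, 459 and 692 CPM, and among B gate cells with Ms4a1 and without Sdc1, a stricter choice that left 58 cells in IR_HSO, 145 in IR and 4086 in control, it was 409, 515 and 752 CPM over that same kind of total. Txnip was 122 CPM in IR_HSO, 119 CPM in IR and 261 CPM in control over the whole total, but 368, 341 and 374 CPM without the named gene groups. Fkbp5 kept the order seen in the T gate on both totals, with 46.6, 32.0 and 21.6 CPM on the whole total and 141, 91.7 and 30.9 CPM without the gene groups. In the stricter B cells Fkbp5 had 120 CPM in IR_HSO, 106 CPM in IR and 28.8 CPM in control without the gene groups, from 22, 48 and 386 UMIs. Of the B gate cells, 93 of 321 in IR_HSO, 138 of 444 in IR and 541 of 4719 in control were also in the T gate. Fkbp5 had 211, 116 and 34.8 CPM in the T gate. The stricter B cells still carried T cell markers at 368, 769 and 403 CPM. The order of Fkbp5 was therefore not read as one of B cells alone. For IR_HSO against IR, 8 of the 9 genes could be measured in the B gate and 0 were 1.5-fold higher or lower, where 7.86% and 9.34% of all genes were. In the stricter B cells 1 of 8 was higher, Pik3ip1 with 77.4 CPM in IR_HSO and 40.9 CPM in IR, where 13.5% of all genes were. There 2 were lower, Dusp1 with 50.7 CPM in IR_HSO and 138.9 CPM in IR, and Per1 from 3 and 12 UMIs, where 23.7% of all genes were. The stricter B cells still carried immunoglobulin at 268062, 273064 and 19170 CPM.

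Letters of 4 known binding motifs were looked for in RefSeq promoter windows of build GRCm38.p6, which run 250 bases before to 50 bases after a transcript start. The motifs were the full glucocorticoid response element (AGAACA and TGTTCT, 3 bases apart), a forkhead site GTAAACA, the E-box CACGTG bound by clock and other factors, and the cyclic AMP response element TGACGTCA, each on both strands. All 9 genes matched, with 17 windows, of which 6 held a motif. Of 32817 windows in the table, 3 (0.00914%) held the full glucocorticoid element, 3.65% the forkhead letters, 7.15% the E-box and 1.79% the cyclic AMP element. Of the 6 windows with a motif, 5 are printed, to show the forkhead letters, the E-box and the full glucocorticoid element in place: Klf9 (chr19:23140976-23141275, + strand) and Txnip (chr3:96557707-96558006, + strand) with the forkhead letters, Fkbp5 (chr17:28486100-28486399, - strand) and Per1 (chr11:69098699-69098998, + strand) with an E-box, and Sgk1, 1 of its 6 windows (chr10:21993640-21993939, + strand), with both an E-box and the full glucocorticoid element. Motif letters are in capitals, and no 2 motifs overlap in the windows printed.
Klf9: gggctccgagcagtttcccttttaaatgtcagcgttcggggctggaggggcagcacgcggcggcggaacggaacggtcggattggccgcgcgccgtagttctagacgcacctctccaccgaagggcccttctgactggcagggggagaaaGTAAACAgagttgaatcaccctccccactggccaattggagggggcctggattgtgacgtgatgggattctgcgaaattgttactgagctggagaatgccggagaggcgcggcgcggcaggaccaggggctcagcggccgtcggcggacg
Txnip: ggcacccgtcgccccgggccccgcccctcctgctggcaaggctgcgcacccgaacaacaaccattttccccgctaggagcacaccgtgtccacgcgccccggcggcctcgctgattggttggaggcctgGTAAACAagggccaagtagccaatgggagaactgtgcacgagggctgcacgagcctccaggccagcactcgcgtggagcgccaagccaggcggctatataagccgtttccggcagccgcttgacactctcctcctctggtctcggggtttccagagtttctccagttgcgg
Fkbp5: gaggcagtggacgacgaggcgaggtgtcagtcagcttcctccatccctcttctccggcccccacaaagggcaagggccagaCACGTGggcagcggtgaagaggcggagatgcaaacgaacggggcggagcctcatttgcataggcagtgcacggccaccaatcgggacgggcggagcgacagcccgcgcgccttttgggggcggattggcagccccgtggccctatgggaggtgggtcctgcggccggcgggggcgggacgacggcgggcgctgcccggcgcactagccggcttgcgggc
Per1: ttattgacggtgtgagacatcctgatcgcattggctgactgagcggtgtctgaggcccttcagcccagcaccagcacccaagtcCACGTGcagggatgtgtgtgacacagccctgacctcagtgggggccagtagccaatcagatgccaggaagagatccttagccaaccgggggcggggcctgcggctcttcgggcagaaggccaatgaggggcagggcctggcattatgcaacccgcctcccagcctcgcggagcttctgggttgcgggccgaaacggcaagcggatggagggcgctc
Sgk1: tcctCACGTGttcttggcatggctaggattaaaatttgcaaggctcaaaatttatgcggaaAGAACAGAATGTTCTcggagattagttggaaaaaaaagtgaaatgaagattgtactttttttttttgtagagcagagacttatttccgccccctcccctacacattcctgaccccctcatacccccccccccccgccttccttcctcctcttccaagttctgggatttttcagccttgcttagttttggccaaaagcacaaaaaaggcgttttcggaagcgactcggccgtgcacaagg

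Klf9 and Txnip, which share the forkhead letters, were both higher in IR than in control, 7.8-fold and 1.55-fold in the T gate. Genes without these letters in their windows were higher too. Fkbp5 had 116 CPM in IR and 34.8 CPM in control, Dusp1 342 and 120 CPM, Ddit4 133 and 55.6 CPM, and Per1 25.6 and 15.9 CPM. Sgk1, the only one of the 9 with the full glucocorticoid element in a window, was 1.84-fold lower in that comparison, and Tsc22d3, with none of the letters in its windows, stood at 0.912-fold. Dusp1 had an E-box and the cyclic AMP element, and the windows of Ddit4 and Pik3ip1, like those of Tsc22d3, held none of the 4. A match describes letters and not a bound site, and elements outside these windows were not looked for.

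The machinery of the receptor was set beside its target genes. Of the list of receptor and chaperone genes 9 of 10 could be measured in the T gate, and none was 1.5-fold higher or lower in IR than in control, with a median log2 ratio of -0.07. Nr3c1, the glucocorticoid receptor, had 139.9 CPM in IR_HSO, 154 CPM in IR and 119 CPM in control, 1.3-fold [1.24, 1.36] above control in IR and 0.909-fold [0.873, 0.946] in IR_HSO of the IR level. In IR_HSO against IR, 4 of the 9 were lower and 0 higher, against 5.4% and 7.67% of all genes, with a median of -0.50. Hsp90aa1, which encodes the inducible Hsp90 chaperone, had 295 CPM in IR_HSO, 669.6 CPM in IR and 640.2 CPM in control, 2.27-fold [2.21, 2.32] lower in IR_HSO than in IR. Fkbp4, whose cochaperone product competes with that of Fkbp5 for Hsp90, had 46.4 CPM in IR_HSO, 97.9 CPM in IR and 130.4 CPM in control, 2.11-fold [1.98, 2.25] lower in IR_HSO than in IR. Fkbp5 was higher and Fkbp4 lower in IR_HSO than in IR. The immediate-early and heat shock genes described further on were also lower in this comparison, with a median log2 ratio of -0.77. Whether the chaperone genes differed for the same reason was not tested.

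Of 16 other genes known to respond to glucocorticoids, 15 could be measured in the T gate. In IR against control 8 were at least 1.5-fold higher and 1 lower, against 11.5% and 4.23% of all genes, with a median log2 ratio of 0.69. The metallothionein genes, which encode metal-binding proteins, had the largest ratios. Mt2 had 12.7 CPM in IR_HSO, 31.3 CPM in IR and 0.699 CPM in control, 44.8-fold [27.5, 78.7] higher in IR from 16 control UMIs. Mt1 had 51.8 CPM in IR_HSO, 83.1 CPM in IR and 4.37 CPM in control, 19-fold [15.6, 23.5] higher in IR. Bcl6, a transcriptional repressor of follicular helper T cells that stands on both the glucocorticoid and the FOXO list, was 2.59-fold [2.18, 3.08] lower in IR, at 7.26, 5.99 and 15.5 CPM in IR_HSO, IR and control.

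Between IR_HSO and IR, 1 of these 15 genes was higher and 3 were lower, against 7.67% and 5.4% of all genes, and the median log2 ratio was -0.10. Il1r2, the gene of a decoy receptor for interleukin-1, was 2.33-fold [1.98, 2.74] higher, at 14.8 CPM in IR_HSO, 6.36 CPM in IR and 0.830 CPM in control. Mt2 was 2.46-fold [2.19, 2.77] lower in IR_HSO than in IR and Mt1 1.6-fold [1.51, 1.71] lower. Mt1 did not go one way in all gates: its log2 ratio between IR_HSO and IR was -1.48 in the Cd4 gate and 0.73 in the NK gate.

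The FOXO side came next. Of the 12 FOXO and PI3K-AKT genes, all measured, 1 was higher in IR than in control and 0 lower, where 11.5% and 4.23% of all genes were, with a median log2 ratio of 0.09. That 1 was Foxo3, with 36.7 CPM in IR_HSO, 41.0 CPM in IR and 23.1 CPM in control, 1.77-fold [1.6, 1.96] higher in IR. Foxo1, the main FOXO factor of resting T cells, had 112 CPM in IR_HSO, 111 CPM in IR and 148 CPM in control, 0.752-fold [0.718, 0.787] in IR of the control level. None of the 12 passed the limit between IR_HSO and IR. Of 16 other FOXO-responsive genes, all measured, 1 was higher in IR than in control and 1 lower, against the same shares of all genes, with a median of -0.16. The higher was Bcl2l11, which encodes the death-promoting protein BIM, with 149.98 CPM in IR_HSO, 123 CPM in IR and 61.0 CPM in control.

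Between IR_HSO and IR, 2 of these 16 FOXO-responsive genes were higher and 1 lower, where 7.67% and 5.4% of all genes were. Sesn1, a sestrin gene that is also a p53 target, was 1.69-fold [1.58, 1.8] higher at 74.2 CPM in IR_HSO, 44.0 CPM in IR and 61.0 CPM in control. Insr, the insulin receptor gene, was 1.57-fold [1.43, 1.74] higher. Klf2, a transcription factor of naive T cell trafficking, was 1.57-fold [1.54, 1.6] lower, at 593 CPM in IR_HSO, 931 CPM in IR and 979 CPM in control. Both lists were chosen with earlier results of these libraries known, and their difference from the 9 genes was not tested.

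**Figure D4:**
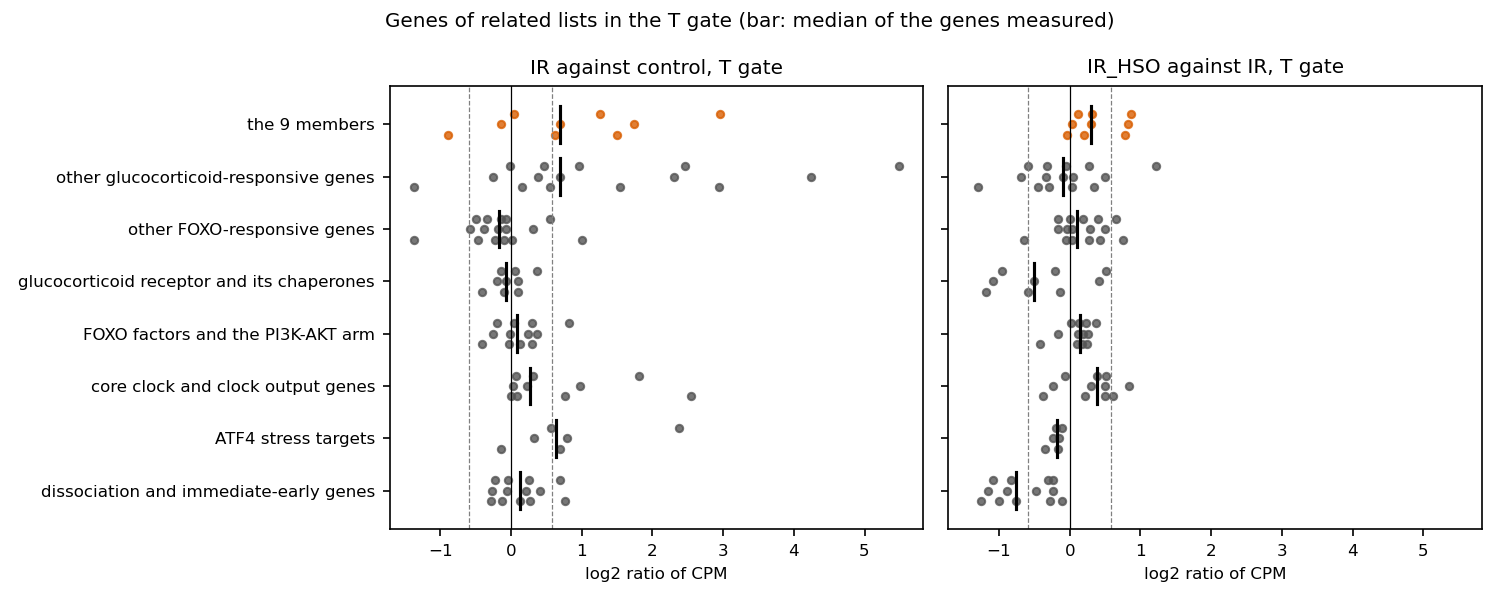
Log2 ratio of CPM in the T gate (horizontal axis) for the 9 genes and for the measured genes of 7 related lists (rows), IR against control on the left and IR_HSO against IR on the right, with a bar at each median and dashed lines at 1.5-fold. On the left, the medians of the 9 genes and of the other glucocorticoid-responsive genes are both 0.69 and that of the other FOXO-responsive genes is -0.16, and on the right the receptor list and the immediate-early list have medians of -0.50 and -0.77.

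Clock genes were listed beside Per1. Of 10 measured in the T gate 4 stood above control in IR and 0 below it, where 11.5% and 4.23% of all genes were past the limit. Bhlhe40, a repressor of clock genes that is also induced on T cell activation, had 155 CPM in IR_HSO, 118 CPM in IR and 20.2 CPM in control, 5.85-fold [5.31, 6.45] higher in IR. Nfil3, a repressor of clock output genes, was 3.49-fold [2.76, 4.48] higher in IR. Between IR_HSO and IR 2 of 11 were higher and 0 lower, against 7.67% and 5.4% of all genes. Per3, a relative of Per1, was 1.79-fold [1.47, 2.18] higher at 8.75 CPM in IR_HSO and 4.90 CPM in IR, and Tef, a clock-driven transcription factor, was 1.54-fold [1.37, 1.72] higher. The hour at which each spleen was taken was not stated, and it cannot be told apart from the groups.

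Immediate-early and heat shock genes, which grinding and warming of a tissue can induce, were listed beside Dusp1. In IR against control 2 of 13 measured were higher and 0 lower, against 11.5% and 4.23% of all genes. Nr4a1, an orphan nuclear receptor gene induced by antigen receptor signals, was 1.7-fold [1.56, 1.85] higher and Egr1, an immediate-early transcription factor gene, 1.61-fold [1.53, 1.7] higher. In IR_HSO against IR 7 of 13 were lower and 0 higher, against 5.4% and 7.67% of all genes, with a median log2 ratio of -0.77. Hspa1a, an inducible Hsp70 gene, had 69.8 CPM in IR_HSO, 166 CPM in IR and 173 CPM in control, 2.38-fold [2.26, 2.5] lower in IR_HSO than in IR. Fos, a subunit of AP-1, had 162 CPM in IR_HSO, 363 CPM in IR and 331 CPM in control, 2.24-fold [2.16, 2.31] lower in IR_HSO than in IR. Dusp1 itself was 1.15-fold higher in IR_HSO than in IR in the T gate, but its direction differed within that gate. It had 344 CPM in IR_HSO and 277 CPM in IR in the Cd4 gate, and 642 and 627 CPM in the Foxp3 gate. The Cd8 gate went the other way with 127 and 142 CPM, as did the neither gate with 348 and 361 CPM. Foxp3 cells, highest in Dusp1, made up 22.2% of the T gate in IR_HSO and 10.6% in IR. The parts of handling and of this mix of cells in these values were not tested.

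Likeness among the 9 genes was described over 18 profiles, 6 gates in each of 3 libraries, as Pearson's r of log2(CPM + 1). The profiles share libraries and totals, so no test is attached. Fkbp5 and Klf9 were the closest pair with r = 0.98, and Ddit4 and Txnip had r = 0.88. Tsc22d3 and Fkbp5 had the lowest value of the 36 pairs, r = -0.21, and Sgk1 had r = 0.09 with both Fkbp5 and Klf9. Fkbp5, Klf9 and Per1, and also Ddit4, Txnip and Pik3ip1, were highest in IR_HSO in the T cell and NK gates. Sgk1 was highest in control in all but the Foxp3 gate.

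A mean of at least 20 CPM over the profiles was reached by 6032 genes, and the 9 were left out of the ranking. Those most like the mean standardised level of the 9 were Kdsr (r = 0.97), Csnk1g1 (r = 0.96), Ddx60 (r = 0.95), Hdac4 (r = 0.95) and Ap3m2 (r = 0.94), each over the same 18 profiles. In the Cd4 gate Hdac4, a histone deacetylase gene, had 76.9 CPM in IR_HSO, 51.4 CPM in IR and 30.8 CPM in control. Kdsr, an enzyme gene of sphingolipid synthesis, had 45.4, 30.8 and 21.5 CPM in the same order. Of the 9 themselves Txnip was closest to their mean profile, with r = 0.95, and Tsc22d3 farthest, with r = 0.38. That mean includes the gene itself, which raises r, so these values do not compare with those of the other genes.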

How the data were processed

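Values were raw UMI counts per gene and cell barcode as deposited by the authors, written by Cell Ranger (version 7.0.1 in the files' own headers, so per the file headers), on build GRCm39 per the submitters' processing notes. The annotation release is not given in the sources used here. The lowest deposited barcode held 500 UMIs. UMIs were summed per gate and library in Python 3.11.15 with numpy 2.4.6 and scipy 1.17.1, scaled to CPM of the gate, and compared as ratios. A gene was measured with at least 5 CPM in either library and 10 UMIs over both. A count of 0 was raised to 3 for a ratio. A cell in both the T and the B gate counted in both (93 in IR_HSO, 138 in IR, 541 in control). Doublets were left in, and a Scrublet-type score was an alternative only. Intervals are exact conditional binomial for ratios, exact Poisson for CPM and Clopper-Pearson for shares, at 95%. The ratio code was tested on simulated data. The members and all lists were chosen with earlier results of these data known. All 9 members were named; of each list the 2 highest and 2 lowest genes past 1.5-fold in the T gate, plus Nr3c1, Foxo1 and Foxo3; and the 5 genes most like the members' mean profile. Of the listed symbols Bmal1 was matched through Arntl, and Tsc22d4 was not analysed here.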

Additional observations from a re-analysis of the deposited data

Results flagged for a closer look

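For 3 genes the ratio of IR to control lay at least 1.5-fold above 1 in a T or NK gate and at least 1.5-fold below 1 in the B gate. The log2 ratio of Txnip was 0.66 in the Foxp3 gate and -1.14 in the B gate, that of Per1 1.01 in the NK gate and -0.60 in the B gate, and that of Pik3ip1 0.95 in the NK gate and -1.70 in the B gate. The difference between gates was not tested. The B gate direction turned for 2 of the 3: Txnip had 0.0075 when centred on all genes, and Per1 had 0.55 when centred, 0.40 without the named gene groups and 0.55 in thinned cells. In the B gate immunoglobulin made up 503725 CPM in IR against 40509 CPM in control, and the median log2 ratio of all genes was -1.14.

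Barcodes with 10% or more mitochondrial UMIs took no part in the comparisons. In their T gate, with 279 barcodes in IR_HSO, 133 in IR and 38 in control, the counting interval of the ratio to control lay above 1 for 4 genes. Fkbp5 stood at 287 CPM in IR_HSO, 155 CPM in IR and 20.7 CPM in control, Txnip at 619, 674 and 248 CPM, and Dusp1 at 374, 334 and 82.7 CPM in the same order. The control values rest on 1 UMI of Fkbp5 (counting interval 0.524 to 115 CPM), 12 UMIs of Txnip and 4 UMIs of Dusp1. Klf9 stood at 143 CPM in IR_HSO and 92.7 CPM in IR, and had 0 UMIs in control, with an exact Poisson upper bound of 76.3 CPM.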

How the results depend on the processing

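The median log2 ratio of the 9 genes in the T gate for IR against control, 0.69, lay between 0.59 and 0.79 under the alternatives run. The count of genes at least 1.5-fold higher, 6, was 5 when ratios were centred on all genes, when named gene groups left the total and when the 4 T gates were weighted equally. It was 4 at a 2-fold limit and 6 otherwise. For IR_HSO against IR the median of 0.30 moved to 0.36 without the named gene groups and to 0.19 in cells thinned to 1000 UMIs, and lay between 0.26 and 0.36 otherwise. The 3 genes higher by 1.5-fold in that comparison became 0 at a 2-fold limit, since none reached 2-fold in the T gate, and the count was 3 under the other alternatives; the count lower was 0 under each. Of 782 alternative values for single genes and gates, 624 stayed within the counting interval, 154 moved beyond it and 4 that had been past 1.5-fold changed sign. These 4 were in the B gate for IR against control. Another 48, whose reported value lay within 1.5-fold, also changed sign, among them Ddit4 in the B gate for IR against control (-0.09, and 0.91 without the named gene groups) and Pik3ip1 in the T gate (0.05, and -0.06 when centred). Txnip went to 0.0075 when centred, against -1.14, and Per1 to 0.55 when centred, 0.40 without the named gene groups and 0.55 when thinned, against -0.60. The cause was not tested beyond the share of immunoglobulin given above. The settings differed: thinning to 1000 UMIs moved 59 of 123 values beyond their interval, and leaving out cells with a Ccl5 UMI 15 of 18. Keeping only cells under 5% mitochondrial UMIs moved 1 of 125. Without cells that carried a Ccl5 UMI, chosen after seeing the data, Dusp1 in IR_HSO against IR had a log2 ratio of 0.56, against 0.21. No paired analysis was possible because each group has 1 library, and for the same reason no replicate could be left out. Counting precision is lowest in the B gate of the irradiated libraries and in the Foxp3 and NK gates of control.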

Other observations

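Other lists set beside Ddit4, Txnip and Sgk1 in the T gate gave these values, to be read against all genes measured there, of which 11.5% were at least 1.5-fold higher and 4.23% lower in IR against control, and 7.67% and 5.4% in IR_HSO against IR. Of the 6 measured ATF4 stress targets, 3 were at least 1.5-fold above control in IR and 0 in IR_HSO against IR. Sesn2, a sestrin gene that stands on the p53 list too, had 13.7 CPM in IR_HSO, 15.7 CPM in IR and 3.01 CPM in control, and Atf5, a stress transcription factor gene, had 4.99, 5.60 and 3.23 CPM in the same order. All 12 genes of the p53 list were higher in IR than in control, with a median log2 ratio of 1.88. None of them passed the limit in IR_HSO against IR, where the median was -0.03. Sesn1, a p53 target described above, is not on that list and was lower in IR than in control. Cdkn1a, the cell cycle inhibitor p21, had 147 CPM in IR_HSO, 208 CPM in IR and 1.70 CPM in control, and Phlda3, an inhibitor of AKT, had 78.2, 102 and 1.97 CPM.

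Of 8 measured mTORC1 genes 1 was higher in each comparison, near the share of all genes. In IR against control it was Castor1, an arginine sensor gene, with 16.4 CPM in IR_HSO, 12.8 CPM in IR and 5.37 CPM in control. In IR_HSO against IR it was Tsc1, an inhibitor of the pathway, with 44.4, 27.4 and 26.5 CPM. Of the relatives of the 9 genes, 4 of 20 measured stood above control in IR and 0 below it, and in IR_HSO against IR 3 of 21 were higher and 2 lower. Dusp5, a phosphatase of ERK, had 62.0 CPM in IR_HSO, 72.5 CPM in IR and 25.2 CPM in control. Dusp4, a MAP kinase phosphatase gene, had 12.6, 7.70 and 4.32 CPM, and Arrdc4, a close relative of Txnip, had 11.0, 6.78 and 3.80 CPM in the same order.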
